A study of Mus musculus with 24 samples.

Results

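The genes described here are those of the irisin axis at the level of messenger RNA: Fndc5, which encodes the precursor of irisin, its close relative Fndc4, and the genes Itgav, Itgb5 and Itgb1, whose products make up the integrins reported as irisin receptors. They were picked by gene symbol from the deposited gene table, and each symbol occurred there, so that 5 of 54532 genes are described. The messenger RNA of white fat from C57BL6 mice was sequenced in 8 groups of 3 libraries, 24 in all. The groups were iWAT (inguinal fat, under the skin) and eWAT (epididymal fat, in the abdomen), each from mice that had received AAV-irisin and were fed HFD (a high-fat diet), AAV-irisin and chow, AAV-GFP and HFD, or AAV-GFP and chow, with the diets given for 18 weeks. AAV is an adeno-associated virus used as a gene vector, and GFP, a fluorescent protein, is the control cargo, so that every mouse carried a vector. Which tissue takes up the vector, its promoter and the species of its irisin sequence are not in the labels. Neither do they tell if a group's 3 libraries are 3 mice, or if the depots were taken from the same mice. The p-values therefore reflect the spread among the libraries, which may be technical.

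FNDC5 is a membrane protein with a fibronectin type III domain, and irisin is the part of it that is cut off and released, mostly from muscle, with exercise. FNDC4 is the family member closest to FNDC5 and has its own reported receptor, GPR116, encoded by Adgrf5. Integrins are cell-surface receptors made of an alpha and a beta subunit. The alphaV subunit pairs with several beta subunits and binds matrix and secreted proteins such as vitronectin and osteopontin. The alphaV/beta5 and alphaV/beta1 pairs have been reported to bind irisin on bone and fat cells, with the tetraspanin CD81 and extracellular HSP90 alpha reported as helpers. Beta1 also pairs with many other alpha subunits, so that its messenger is not a measure of the irisin receptor alone.

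By the deposited table, Fndc5 (ENSMUSG00000001334) lies at chr4:129136999-129144593 on the plus strand and Fndc4 (ENSMUSG00000038552) at chr5:31292242-31296080 on the minus strand. Itgav (ENSMUSG00000027087) lies at chr2:83724397-83806916, Itgb5 (ENSMUSG00000022817) at chr16:33829665-33949338 and Itgb1 (ENSMUSG00000025809) at chr8:128685654-128733200, these 3 on the plus strand. All 5 are protein coding and have the same positions in GENCODE M21, which uses the build GRCm38. The build the authors used was not given in the labels. Among the deposited genes, 2 minor ones on the opposite strand (Dnmt3l-ps1 and Gm13684) overlap Itgav, and neither had more than 3 reads in any library. No other gene overlaps a member.

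The promoters are shown because each of the 5 genes had a called difference between the diets or between the depots. They are the 250 bases before the RefSeq start of each gene in GRCm38.p6, written 5′ to 3′ on the gene's own strand. They lie at chr4:129136749-129136998 for Fndc5, chr5:31295933-31296182 for Fndc4, chr2:83724147-83724396 for Itgav, chr16:33829415-33829664 for Itgb5 and chr8:128685404-128685653 for Itgb1. The Fndc4 window lies partly inside the deposited gene model, and RefSeq lists 2 promoters for this gene, of which 1 is shown. Capitals mark the GC box, searched as GGGCGG or, on the other strand, CCGCCC.
Fndc5: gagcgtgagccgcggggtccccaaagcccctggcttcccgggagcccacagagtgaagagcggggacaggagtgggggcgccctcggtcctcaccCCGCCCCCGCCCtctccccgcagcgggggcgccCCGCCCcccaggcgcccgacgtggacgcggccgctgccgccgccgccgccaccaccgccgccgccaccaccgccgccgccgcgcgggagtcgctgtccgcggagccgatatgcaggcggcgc
Fndc4: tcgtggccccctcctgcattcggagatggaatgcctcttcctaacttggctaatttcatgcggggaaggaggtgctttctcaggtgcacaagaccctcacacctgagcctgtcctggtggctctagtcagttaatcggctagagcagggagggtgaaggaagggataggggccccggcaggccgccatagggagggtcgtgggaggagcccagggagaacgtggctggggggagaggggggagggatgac
Itgav: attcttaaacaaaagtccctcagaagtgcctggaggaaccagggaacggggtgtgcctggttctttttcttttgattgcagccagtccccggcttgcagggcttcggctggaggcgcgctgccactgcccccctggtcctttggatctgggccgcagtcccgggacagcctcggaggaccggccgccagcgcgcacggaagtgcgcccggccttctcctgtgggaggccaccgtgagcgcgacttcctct
Itgb5: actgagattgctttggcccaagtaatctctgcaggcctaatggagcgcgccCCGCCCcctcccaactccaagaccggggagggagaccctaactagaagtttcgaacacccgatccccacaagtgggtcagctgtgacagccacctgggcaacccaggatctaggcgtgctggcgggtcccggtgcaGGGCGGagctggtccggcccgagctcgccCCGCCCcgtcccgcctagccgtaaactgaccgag
Itgb1: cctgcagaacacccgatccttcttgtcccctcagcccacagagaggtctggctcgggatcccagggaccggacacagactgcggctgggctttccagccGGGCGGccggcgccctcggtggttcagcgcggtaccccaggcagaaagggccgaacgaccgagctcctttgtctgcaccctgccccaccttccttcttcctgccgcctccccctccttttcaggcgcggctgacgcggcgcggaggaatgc
The Fndc5 window was the richest of the 5 in G and C, at 80.8%, against 61.6% for Fndc4, 64.4% for Itgav, 65.2% for Itgb5 and 68.0% for Itgb1. It held 3 GC boxes, of which 2 lie side by side, and the Itgb5 window also held 3. The Itgb1 window held 1, and the Fndc4 and Itgav windows held 0. A GC box was present in 32.7% of 32851 promoters of the same length. None of the 5 windows held CCAAT (33.8% of promoters), TATAAA (12.4%), the estrogen-related receptor element TCAAGGTCA (0.387%) or the E-box CACGTG (6.02%), each searched on both strands. A match describes the letters and says nothing of a factor being bound.

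The 24 libraries had between 14.1 M and 19.7 M reads in genes (median 16.4 M). The 8 adipocyte markers were detected in every group, with sums of 4280 to 11844 FPKM per library (fragments scaled by gene length and library size, the deposited unit). The 8 mesothelial markers, which mark the lining of visceral fat, summed to 0.716 to 5.30 FPKM in iWAT and 24.3 to 488 FPKM in eWAT. Markers of other tissues set 4 libraries apart: B cell markers summed to 423 FPKM in iWAT GFP HFD 1 and 119 FPKM in eWAT GFP chow 1, skeletal muscle markers to 4587 FPKM in iWAT irisin chow 3, and markers of epididymal epithelium to 3714 FPKM in eWAT GFP HFD 3. All fits were also run without these 4 libraries. Other libraries stood apart in markers of cells resident in fat and stayed in those fits. Macrophage markers summed to 423 FPKM in eWAT irisin HFD 2, against 1214 and 1325 FPKM in the rest of its group. In iWAT GFP chow 3 they summed to 107 FPKM, against 581 and 579 FPKM. In these bulk libraries fewer cells of a type and less RNA per cell cannot be told apart.

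The 2 beta subunits were abundant in white fat, while the precursor gene and its relative were low. Mean levels over the 24 libraries were 128 FPKM for Itgb1 (rank 317 of 54532 genes), 71.3 FPKM for Itgb5 (rank 649), 4.96 FPKM for Itgav (rank 7605), 1.46 FPKM for Fndc5 (rank 12036) and 1.41 FPKM for Fndc4 (rank 12125). Per library these levels rested on 5625 to 12656 reads for Itgb1, 2090 to 6621 for Itgb5, 390 to 1931 for Itgav, 27 to 165 for Fndc4 and 5 to 194 for Fndc5. The spread was largest for Fndc5, which ranged 37.9-fold, between 0.131 FPKM in eWAT GFP chow 2 and 4.94 FPKM in eWAT irisin HFD 2. The highest library over the lowest was 4.97-fold for Fndc4, 4.62-fold for Itgav, 2.74-fold for Itgb5 and 1.94-fold for Itgb1. For the 3 integrin genes the lowest library was iWAT GFP chow 3 and the highest was eWAT GFP HFD 1.

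**Figure D1:**
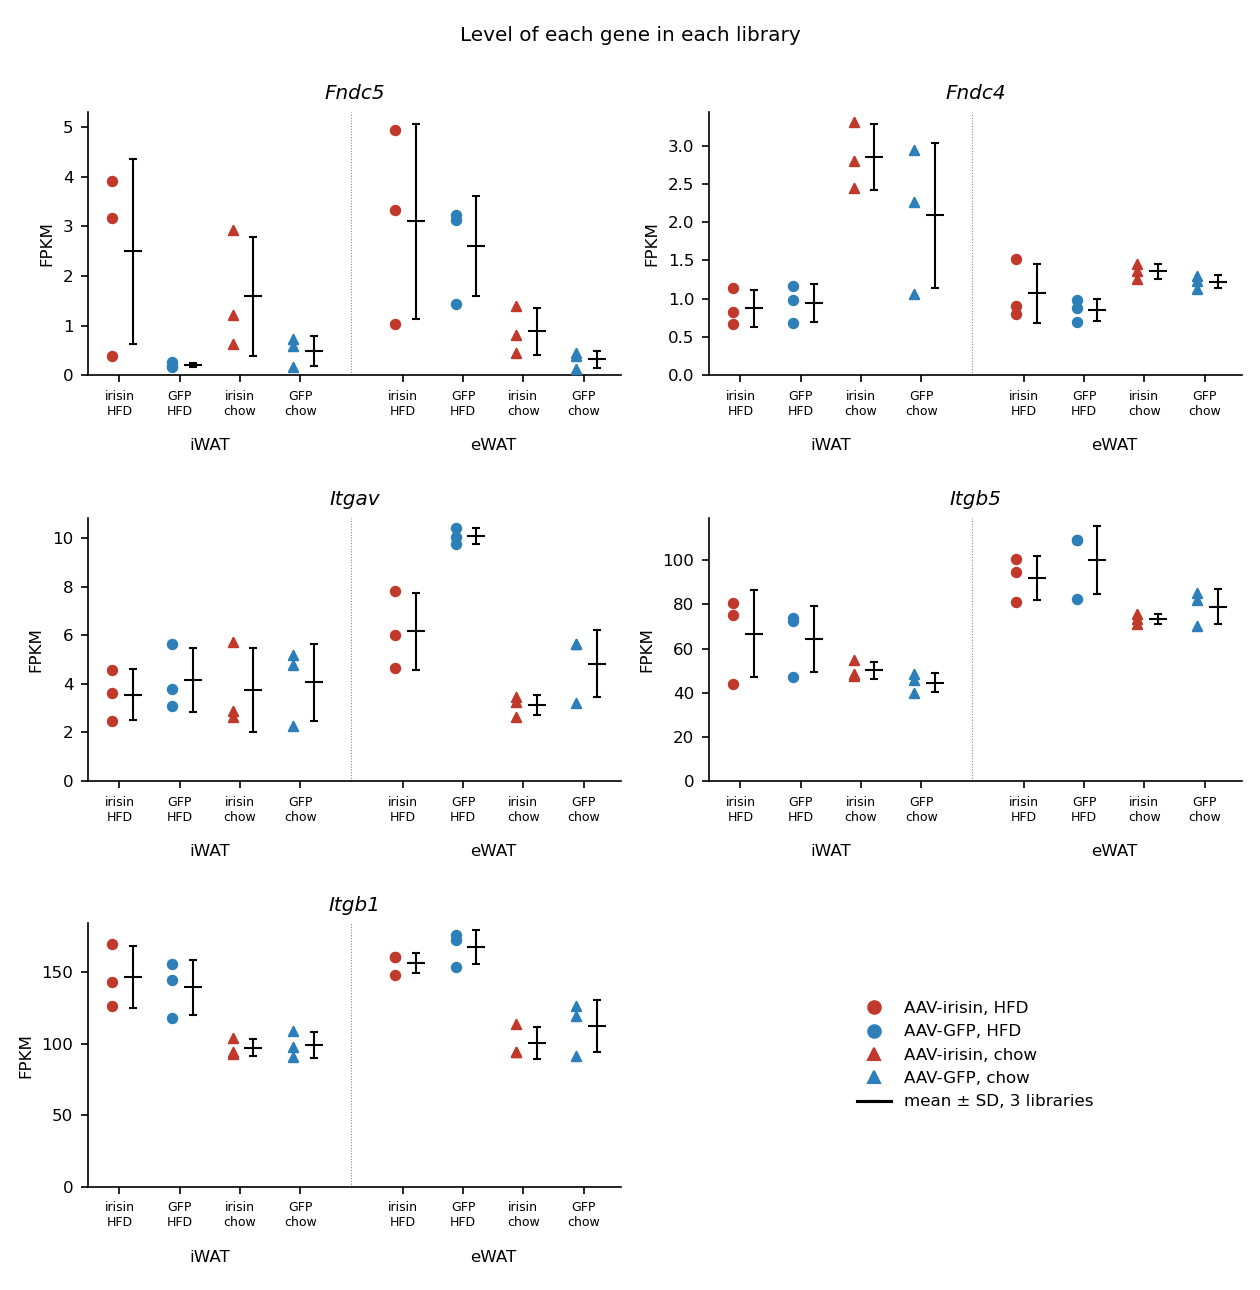
FPKM of the 5 genes in each of the 24 libraries (points, 3 per group; bars, mean ± SD), 1 panel per gene with its own vertical axis in FPKM. Fndc5 varied 37.9-fold over the libraries and Itgb1 1.94-fold.

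Fndc5 was higher on HFD than on chow in eWAT, and no such difference was found in iWAT. In eWAT of irisin mice its level was 3.32, 4.94 and 1.04 FPKM on HFD and 0.456, 0.801 and 1.40 FPKM on chow. In eWAT of GFP mice it was 3.22, 3.13 and 1.44 FPKM on HFD and 0.454, 0.131 and 0.390 FPKM on chow. The GFP groups did not overlap, and in the irisin groups a single HFD library lay below the highest chow library. Averaged over the vectors, Fndc5 rose by 1.56 ± 0.32 on the log2(FPKM + 0.5) scale (SE), with 2.85 ± 1.42 FPKM on HFD and 0.605 ± 0.444 FPKM on chow (SD, n = 6 each). limma's adjusted p was 0.00296, and leaving out any 1 of the 12 libraries kept the call, with values of 1.37 to 1.82. Its size depended on the scale, at 1.21 with a pseudocount of 1 and 2.36 with voom on the recovered reads, and for GFP mice alone at 1.41 and 3.04. The rise was called in GFP mice (1.87 ± 0.45, limma adjusted p = 0.0116) and not in irisin mice (1.25 ± 0.45, limma adjusted p = 0.0761). The difference of these 2 effects, -0.62 ± 0.63, was itself not called (limma adjusted p = 0.909).

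In iWAT the Fndc5 levels were 0.392, 3.17 and 3.91 FPKM in irisin HFD libraries and 0.621, 1.21 and 2.93 FPKM in irisin chow libraries. They were 0.258, 0.163 and 0.193 FPKM in GFP HFD libraries and 0.735, 0.578 and 0.157 FPKM in GFP chow libraries. The groups of the 2 diets overlapped under both vectors. The averaged diet effect in iWAT was -0.032 ± 0.40 (limma adjusted p = 0.964), with a 95% interval of -0.92 to 0.85 that does not exclude changes in either direction. It changed sign when single libraries were left out, between -0.25 and 0.33. The diet effect in iWAT minus that in eWAT was -1.59 ± 0.54, and it missed the threshold (limma adjusted p = 0.0505). It was called in 8 of the 24 fits that left out 1 library, with a filter of 1 FPKM (limma adjusted p = 0.0467) and with a pseudocount of 0.1 (-2.33, limma adjusted p = 0.0366), and with voom its value was -2.77.

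Between the vectors none of the 5 genes was called, Fndc5 included. Whether reads from the irisin vector would be counted as Fndc5 was not tested. In iWAT of HFD mice the 3 irisin libraries lay above the 3 GFP libraries, with means of 2.49 ± 1.86 and 0.205 ± 0.0484 FPKM (SD, n = 3 each). The log2 difference was 1.79 ± 0.57 with an adjusted p of 0.946 by limma, and voom gave 2.87. On chow the iWAT groups overlapped, at 0.97 ± 0.57 (limma adjusted p = 0.919). In eWAT the irisin and GFP groups overlapped on HFD (0.096 ± 0.45, limma adjusted p = 0.953). On chow they were barely apart, with irisin higher by 0.71 ± 0.45 (limma adjusted p = 0.939). The lowest irisin chow library had 0.456 FPKM (21 reads) and the highest GFP chow library 0.454 FPKM (19 reads). The eWAT HFD difference was -0.21 without the 4 libraries rich in other tissues. Averaged over the diets, Fndc5 was at 1.38 ± 0.40 in iWAT (95% interval 0.50 to 2.27, limma adjusted p = 1) and 0.41 ± 0.32 in eWAT (limma adjusted p = 0.658). Groups were apart in 1 member in iWAT on HFD, against 6.34% of all genes, in 0 on chow (16.3%), in 1 in eWAT on HFD (13.4%) and in 1 on chow (10%).

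The background in the vector comparisons was 0% of genes called by limma in iWAT on HFD and on chow, in eWAT on HFD and on chow, and in each depot averaged over the diets. At an unadjusted p under 0.05, 431 genes of 16125 passed in iWAT on HFD and 688 on chow, and 1510 of 16274 in eWAT on HFD and 845 on chow. Averaged over the diets, 378 passed in iWAT and 1617 in eWAT. The members among them were Fndc5 in iWAT on HFD and averaged over the diets, and Itgav in eWAT on HFD, on chow and averaged. voom on the recovered reads called 0 genes in each of these comparisons. The 1 other Fndc5 comparison that bears on the vector, its effect in iWAT minus that in eWAT, gave 0.98 ± 0.54 (limma adjusted p = 1), where 0% of all genes were called, no member passed an unadjusted p under 0.05 and voom called 0 genes.

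Markers of skeletal muscle, the tissue best known for Fndc5, are given beside these values. Between irisin and GFP in iWAT the 9 tested had a median log2 difference of 3.14, with 9 above 0 and 0 called by limma. On HFD against chow 6 were called lower and 0 higher. Of all genes in iWAT 8.02% were called lower on HFD and 9.45% higher, averaged over the vectors. They summed to 19.7, 19.4 and 37.8 FPKM in the iWAT irisin HFD libraries with 0.392, 3.17 and 3.91 FPKM of Fndc5. In the iWAT irisin chow libraries they summed to 94.6, 316 and 4587 FPKM, beside 0.621, 1.21 and 2.93 FPKM of Fndc5. Within these groups the library highest in muscle markers was also the highest in Fndc5. The irisin chow libraries shared the whole order, and the irisin HFD libraries did not. Among the latter, the library with 19.4 FPKM of markers had 3.17 FPKM of Fndc5, and that with 19.7 FPKM had 0.392 FPKM. In the GFP libraries of iWAT the marker sum was 14.8 to 18.9 FPKM on HFD and 18.5 to 26.5 FPKM on chow. The irisin libraries thus stood further above the GFP libraries on chow than on HFD. Of the 12 markers Tnnc2 was at 0 in all 3 libraries of both GFP groups and of the irisin HFD group. In eWAT they summed to 26.9, 93.2 and 22.3 FPKM in irisin HFD libraries, again with the highest sum in the library highest in Fndc5. The irisin chow libraries of eWAT, at 21.8, 43.5 and 24.9 FPKM, did not share that order with their 0.456, 0.801 and 1.40 FPKM of Fndc5. The sums were 18.1 to 20.9 FPKM in GFP HFD and 29.0 to 46.5 FPKM in GFP chow libraries. The GFP HFD libraries of eWAT, which were high in Fndc5, were thus the lowest there in muscle markers. The part of muscle RNA in the irisin libraries' Fndc5 was not tested.

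Fndc4 fell on HFD in iWAT. In irisin mice it was at 1.14, 0.666 and 0.825 FPKM on HFD and at 2.80, 3.31 and 2.45 FPKM on chow. In GFP mice Fndc4 was at 0.988, 1.17 and 0.683 FPKM on HFD and at 2.94, 2.26 and 1.06 FPKM on chow. The irisin groups did not overlap, while the lowest GFP chow library lay within the HFD range. Averaged over the vectors the level was 0.912 ± 0.221 FPKM on HFD and 2.47 ± 0.783 FPKM on chow (SD, n = 6 each), a log2 fold change of -1.04 ± 0.20 or 0.488 times. limma's adjusted p was 0.00646, and the call held with each of the 12 libraries left out, at -1.20 to -0.91. In irisin mice alone the change was -1.29 ± 0.28 (limma adjusted p = 0.0205), and it was not called when irisin HFD 2 or 3 or any irisin chow library was left out (limma adjusted p up to 0.0822). In GFP mice it was -0.78 ± 0.28 and not called (limma adjusted p = 0.166).

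In eWAT Fndc4 was at 1.52, 0.898 and 0.798 FPKM in irisin HFD libraries and at 1.36, 1.46 and 1.25 FPKM in irisin chow libraries. It was at 0.881, 0.982 and 0.699 FPKM in GFP HFD libraries and at 1.13, 1.23 and 1.30 FPKM in GFP chow libraries. A single library, irisin HFD 1, lay above every chow library. The averaged change was -0.31 ± 0.13 and was not called (limma adjusted p = 0.078). Without that library it was -0.41 and called (limma adjusted p = 0.0173). The change in iWAT was larger than that in eWAT by -0.73 ± 0.23 on the log2 scale (limma adjusted p = 0.0411). This difference was not called in 16 of the 24 fits with 1 library left out, with limma adjusted p up to 0.0825, nor without the 4 libraries rich in other tissues (limma adjusted p = 0.0554).

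The stromal progenitor markers, genes of the fibroblast-like precursors of fat cells, fell in the same iWAT libraries. Of 8 markers 4 were called lower on HFD, against 8.02% of all genes, and 0 higher. Their median log2 fold change was -1.29, where the median of all genes was -0.016. Their sums were 1115 to 1386 FPKM in irisin HFD and 1492 to 2236 FPKM in irisin chow libraries. They were 637 to 1184 FPKM in GFP HFD and 921 to 2080 FPKM in GFP chow libraries. None of the 8 markers was at 0 in any group. In iWAT GFP chow 3 both the marker sum, 921 FPKM, and Fndc4, 1.06 FPKM, were the lowest of the 6 chow libraries. Macrophage markers in iWAT of irisin mice also had lower sums on HFD, 129 to 327 FPKM, than on chow, 592 to 722 FPKM. In GFP mice the macrophage sums were 187 to 368 FPKM on HFD and 107 to 581 FPKM on chow, with 107 FPKM in GFP chow 3. The parts of progenitor and macrophage abundance in the Fndc4 difference were not tested.

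Itgav rose on HFD in eWAT. It was at 7.82, 4.64 and 6.01 FPKM on HFD and at 3.44, 2.65 and 3.26 FPKM on chow in irisin mice. It was at 10.4, 9.76 and 10.1 FPKM on HFD and at 3.22, 5.62 and 5.63 FPKM on chow in GFP mice. HFD and chow did not overlap under either vector, and the 3 GFP HFD libraries had an SD of 0.327 FPKM. Averaged over the vectors Itgav was 1.92 times higher on HFD, a log2 difference of 0.94 ± 0.15 (limma adjusted p = 8.77e-04), and it kept the call with each of the 12 libraries left out, at 0.82 to 1.03. The rise was called in irisin mice (0.86 ± 0.22, limma adjusted p = 0.0227) and in GFP mice (1.03 ± 0.22, limma adjusted p = 0.0065). In irisin mice it was not called without irisin HFD 1 or 3 or irisin chow 2 or 3 (limma adjusted p up to 0.0862).

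In iWAT Itgav ranged between 2.48 and 5.63 FPKM on HFD and between 2.26 and 5.74 FPKM on chow, over 6 libraries each. The 2 diets thus covered the same range. The averaged change was 0.019 ± 0.25 with a 95% interval of -0.53 to 0.57 (limma adjusted p = 0.966), and it had the opposite sign, -0.044, with voom on the recovered reads. The diet effect in iWAT minus that in eWAT was -0.92 ± 0.31 and was called (limma adjusted p = 0.0456). It was not called in 16 of the 24 fits with 1 library left out (limma adjusted p up to 0.0889), nor without the 4 libraries rich in other tissues (limma adjusted p = 0.111).

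Itgav was also the member with the lowest p between the vectors in eWAT. On HFD its mean was 6.16 ± 1.60 FPKM in irisin and 10.1 ± 0.327 FPKM in GFP libraries (SD, n = 3 each). The groups did not overlap, as counted above. The log2 difference was -0.70 ± 0.22 on HFD (limma adjusted p = 0.533), -0.53 ± 0.22 on chow (limma adjusted p = 0.939) and -0.61 ± 0.15 averaged over the diets. The averaged limma adjusted p of 0.489, shared with other genes, was the lowest among the 16274 genes tested. With any 1 of the 12 libraries left out the averaged effect stayed above the threshold, and it came closest without GFP chow 1 (-0.73, limma adjusted p = 0.051).

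Macrophage markers were higher on HFD than on chow in eWAT, as Itgav was. Their sums over 8 markers were 423 to 1325 FPKM in irisin HFD and 1190 to 1519 FPKM in GFP HFD libraries, and 350 to 372 FPKM in irisin chow and 317 to 408 FPKM in GFP chow libraries. All 8 were called higher on HFD, with a median log2 fold change of 1.42, as were 7 of 8 markers of lipid-associated macrophages (median 4.37). Of all genes in eWAT 20.9% were called higher and 18.4% lower. The mesothelial markers were called lower, 8 of 8, and of the 8 adipocyte markers 5 were called lower and 1 higher. In iWAT 2 of the 8 macrophage markers were called lower on HFD and 0 higher, against 8.02% and 9.45% of all genes. The lipid-associated macrophage markers in iWAT of irisin mice summed to 1326 to 1760 FPKM on HFD and 696 to 825 FPKM on chow. In GFP mice they summed to 844 to 1791 FPKM on HFD and 941 to 1225 FPKM on chow. Within the groups of eWAT the libraries did not share one order in macrophage markers and Itgav. In GFP chow libraries the sums were 389, 317 and 408 FPKM beside 3.22, 5.62 and 5.63 FPKM of Itgav. In irisin HFD libraries they were 1214, 423 and 1325 FPKM beside 7.82, 4.64 and 6.01 FPKM of Itgav. How much of the Itgav difference came with macrophages was not tested.

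**Figure D2:**
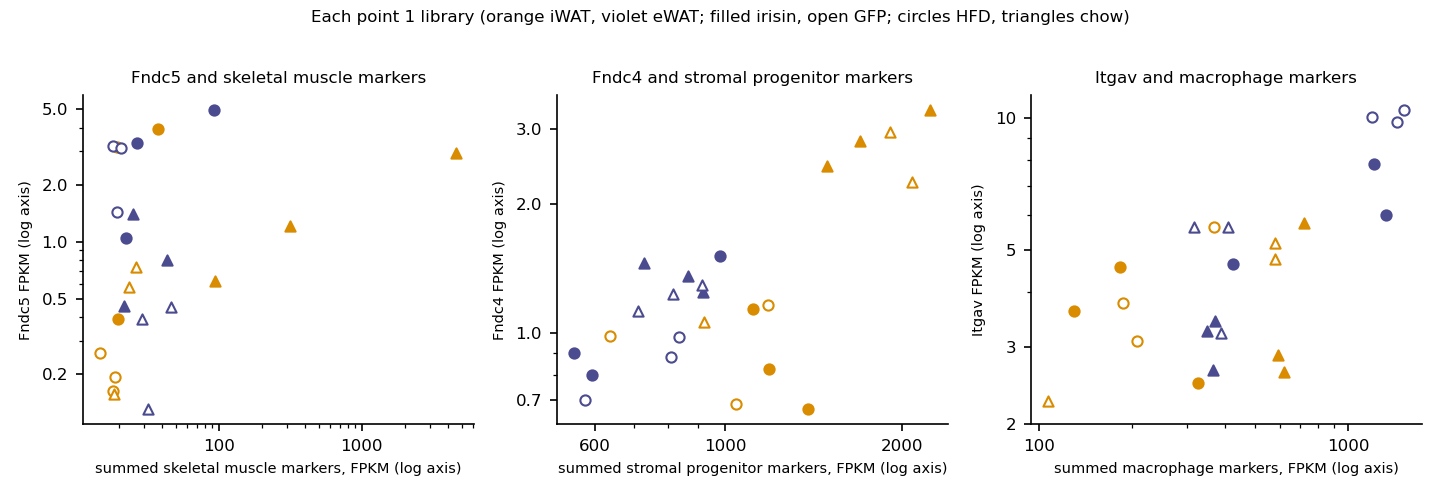
FPKM per library (1 point each, n = 24, log axes) with colour for the depot, filled for irisin, open for GFP, circles for HFD and triangles for chow: Fndc5 against the summed skeletal muscle markers, Fndc4 against the summed stromal progenitor markers, and Itgav against the summed macrophage markers. The eWAT HFD libraries have 423 to 1519 FPKM of macrophage markers and 4.64 to 10.4 FPKM of Itgav, and the eWAT chow libraries 317 to 408 FPKM and 2.65 to 5.63 FPKM.

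Itgb5, the beta subunit of the best studied irisin receptor, rose on HFD in eWAT by a smaller factor. Its level was 94.6, 81.2 and 100.4 FPKM on HFD and 73.3, 70.9 and 75.5 FPKM on chow in irisin mice. In GFP mice Itgb5 was at 109, 109 and 82.4 FPKM on HFD and 70.2, 85.0 and 81.9 FPKM on chow. The irisin groups did not overlap, and the GFP groups did, through GFP HFD 3. Averaged over the vectors the log2 difference was 0.33 ± 0.10, or 1.26 times (limma adjusted p = 0.0198). The call was lost by a narrow margin without eWAT GFP HFD 1 or 2 (limma adjusted p = 0.0509 and 0.0508) and under upper quartile scaling (0.26, limma adjusted p = 0.0746). Neither vector gave a call alone (0.32 ± 0.14 in irisin mice, limma adjusted p = 0.126, and 0.33 ± 0.14 in GFP mice, limma adjusted p = 0.0947).

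In iWAT Itgb5 was at 75.5, 44.1 and 80.8 FPKM in irisin HFD libraries and at 54.7, 47.4 and 48.5 FPKM in irisin chow libraries. It was at 47.0, 73.8 and 72.3 FPKM in GFP HFD libraries and at 45.6, 48.6 and 39.8 FPKM in GFP chow libraries. In each HFD group 2 libraries lay above the range of the 6 chow libraries and 1 within it, irisin HFD 2 and GFP HFD 1. The averaged difference of 0.43 ± 0.17 was not called (limma adjusted p = 0.101). Without GFP HFD 1 it was 0.54 (limma adjusted p = 0.0292), and without irisin HFD 2 it was 0.57 (limma adjusted p = 0.0202). The diet effect in iWAT minus that in eWAT was 0.10 ± 0.20 (limma adjusted p = 0.786).

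Itgb1, the most abundant of the 5 and a partner of many alpha subunits, rose on HFD in both depots. In iWAT it was at 144, 127 and 169.7 FPKM on HFD and at 94.6, 104 and 93.2 FPKM on chow in irisin mice. In GFP mice Itgb1 was at 118, 156 and 145 FPKM on HFD and at 97.9, 109 and 90.8 FPKM on chow. All 6 HFD libraries lay above all 6 chow libraries, which 4.76% of genes in iWAT also showed. The averaged log2 difference was 0.53 ± 0.11, or 1.45 times, with a limma adjusted p of 0.00914 and values of 0.48 to 0.59 with single libraries left out. It was called in irisin mice (0.58 ± 0.16, limma adjusted p = 0.0424), though not in 8 of the 12 fits with 1 library left out, with limma adjusted p up to 0.166. In GFP mice it was 0.48 ± 0.16 and not called (limma adjusted p = 0.127).

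In eWAT Itgb1 was at 161, 161 and 148 FPKM on HFD and at 114, 94.4 and 94.0 FPKM on chow in irisin mice. In GFP mice it was at 176, 173 and 154 FPKM on HFD and at 91.7, 119 and 126 FPKM on chow. Again every HFD library lay above every chow library, as for 8.33% of genes in eWAT. The averaged log2 difference was 0.61 ± 0.10, or 1.53 times (limma adjusted p = 7.75e-04), with values of 0.54 to 0.66 when single libraries were left out. It was called in irisin mice (0.64 ± 0.14, limma adjusted p = 0.0126) and in GFP mice (0.59 ± 0.14, limma adjusted p = 0.0107). In irisin mice it was not called without irisin chow 2 or 3 (limma adjusted p = 0.0536 and 0.0553). The diet effects of the 2 depots differed by -0.080 ± 0.14 (limma adjusted p = 0.763), with a 95% interval of -0.38 to 0.22.

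Counted over the averaged diet effects, 2 of the 5 genes were called in iWAT, where 17.5% of the 16125 genes tested were called, and 4 of 5 in eWAT, where 39.3% of 16274 were. The 2 in iWAT were Fndc4, lower, and Itgb1, higher, and the 4 in eWAT were Fndc5, Itgav, Itgb5 and Itgb1, each higher. In iWAT 9.45% of genes were called higher and 8.02% lower, and in eWAT 20.9% and 18.4%. Within irisin mice 2 members were called in iWAT (9.01% of genes) and 2 in eWAT (17.4%), and the diets did not overlap in 2 members in iWAT (37.1% of genes) and in 3 in eWAT (36.5%). Within GFP mice 3 were called in eWAT (26.5%), and the diets did not overlap in 1 member in iWAT (23.3%) and in 4 in eWAT (44%). Among GFP mice in iWAT, where 2.37% of genes were called, limma called 0 members, voom called 0, and 2 members had an unadjusted p under 0.05. Beside the changes given with each gene, 7 of 8 nerve markers were called lower on HFD in iWAT and 0 higher, and 2 of 8 endothelial markers higher and 0 lower. Their part in the members' differences was not tested. The difference of diet effects between the depots was called for 2 members, Fndc4 and Itgav, and for 16.1% of all 17687 genes tested there.

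**Figure D3:**
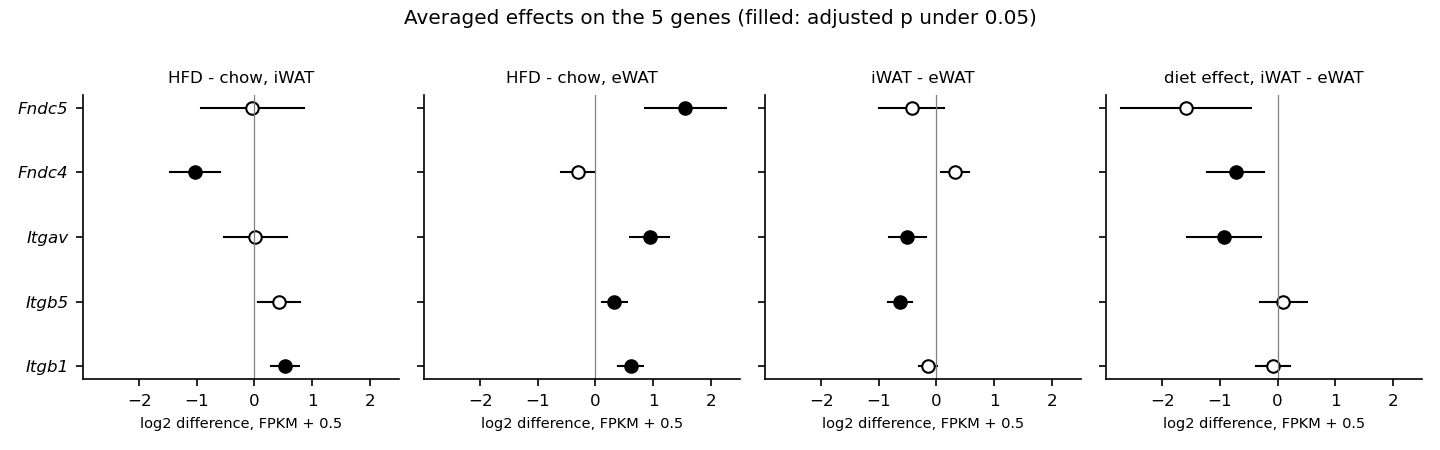
Log2 differences of the 5 genes with 95% intervals: HFD minus chow in iWAT, HFD minus chow in eWAT, iWAT minus eWAT, and the diet effect in iWAT minus that in eWAT; filled points have a limma adjusted p under 0.05. Itgb1 was higher on HFD in iWAT (0.53) and in eWAT (0.61), while the called effects of Fndc5 (1.56) and Itgav (0.94) were in eWAT and that of Fndc4 (-1.04) in iWAT.

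For the vector effect, Fndc4, Itgb5 and Itgb1 gave small values with bounded intervals. Averaged over the diets, Itgb1 differed by 0.023 ± 0.11 in iWAT, with an interval of -0.22 to 0.26, and by -0.12 ± 0.10 in eWAT, with an interval of -0.34 to 0.09. For Itgb5 the values were 0.10 ± 0.17 in iWAT (-0.27 to 0.47) and -0.11 ± 0.10 in eWAT (-0.32 to 0.10). Changes of the beta subunits beyond these bounds are outside the 95% intervals, which are not adjusted for the number of genes. For Fndc4 they were 0.19 ± 0.20 in iWAT (-0.25 to 0.62) and 0.15 ± 0.13 in eWAT (-0.13 to 0.43). Itgav in iWAT differed by -0.15 ± 0.25, with an interval of -0.70 to 0.40. The vector by diet differences were called for 0 members by limma and by voom, and 0 members had an unadjusted p under 0.05. Of all genes 0% were called for them in iWAT and 0.00614% in eWAT.

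Between the depots, Itgb5 was the member that differed most firmly, and it was lower in iWAT. Over the 12 libraries of a depot its level was 56.5 ± 14.6 FPKM in iWAT and 86.1 ± 14.0 FPKM in eWAT (SD). The averaged log2 difference, iWAT minus eWAT, was -0.63 ± 0.10, or 0.647 times, with a limma adjusted p of 1.24e-04. It stayed between -0.67 and -0.56 with any 1 library left out. The iWAT and eWAT groups of Itgb5 did not overlap at any of the 4 combinations of vector and diet. In single combinations 18.8% to 33.9% of all genes were also apart, and the share apart in all 4 was not counted. In irisin mice on HFD the gap was narrow, with 80.8 FPKM at most in iWAT and 81.2 FPKM at least in eWAT. The pair was called in GFP mice on HFD (-0.65 ± 0.20, limma adjusted p = 0.0314) and on chow (-0.82 ± 0.20, limma adjusted p = 0.0185). It was not called in irisin mice on HFD (-0.50 ± 0.20, limma adjusted p = 0.112) or on chow (-0.54 ± 0.20, limma adjusted p = 0.154). The HFD call in GFP mice was lost without iWAT GFP HFD 1 (-0.44, limma adjusted p = 0.122) or eWAT GFP HFD 1 or 2 (limma adjusted p = 0.125 and 0.0992), and the chow call without iWAT GFP chow 3 or eWAT GFP chow 2 or 3 (limma adjusted p up to 0.082). The HFD call was also lost with no filter (limma adjusted p = 0.0536), under upper quartile scaling (0.0626), in a fit of only the groups compared (0.114) and without the 4 libraries rich in other tissues (0.0817).

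Itgav was also lower in iWAT, at 3.88 ± 1.25 FPKM against 6.04 ± 2.84 FPKM in eWAT (SD, n = 12 each). The averaged log2 difference was -0.51 ± 0.15 (limma adjusted p = 0.0198), and it was called with any 1 library left out (-0.58 to -0.42). It stood out on HFD in GFP mice, at -1.22 ± 0.31 (limma adjusted p = 0.0107), where the groups did not overlap. Without the 4 libraries rich in other tissues that pair was not called (limma adjusted p = 0.0674). In irisin mice on HFD the groups were also apart, at -0.72 ± 0.31, without a call (limma adjusted p = 0.143). On chow the depots overlapped, with values of 0.17 ± 0.31 in irisin and -0.26 ± 0.31 in GFP mice.

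The other 3 genes were not called in the averaged depot difference, in which 2 of the 5 members and 25.4% of all genes were. Fndc4 was the gene of the 5 with a higher mean in iWAT, 1.69 ± 0.982 FPKM against 1.13 ± 0.269 FPKM in eWAT (SD, n = 12 each), at 0.32 ± 0.12 (limma adjusted p = 0.0535). This difference was called with a pseudocount of 1 (limma adjusted p = 0.0423), under quantile normalization (0.0359) and with the replicate block (0.0297). It was also called without iWAT irisin HFD 2 (limma adjusted p = 0.0474), iWAT GFP HFD 3 (0.0406), iWAT GFP chow 3 (0.00516) or eWAT irisin HFD 1 (0.0297). In irisin chow libraries Fndc4 was higher in iWAT by 0.85 ± 0.23 (limma adjusted p = 0.0452), the 1 member called, where 4.33% of all genes were. That call was lost in 14 of the 24 fits with 1 library left out (limma adjusted p up to 0.182). Fndc5 averaged -0.43 ± 0.27 (limma adjusted p = 0.261). In GFP mice on HFD, where it was 0.258, 0.163 and 0.193 FPKM in iWAT and 3.22, 3.13 and 1.44 FPKM in eWAT, it was lower in iWAT by -2.08 ± 0.54 (limma adjusted p = 0.0132), with -1.54 at a pseudocount of 1 and -3.57 with voom. That call was lost without eWAT GFP HFD 1 (limma adjusted p = 0.0647). Itgb1 averaged -0.15 ± 0.07 (limma adjusted p = 0.137), and voom on the recovered reads called it (-0.18, adjusted p = 0.0495).

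By pair, 3 members were called in GFP mice on HFD, where 15.2% of all genes were, and 1 in GFP mice on chow, where 4.63% were. The depots did not overlap in 2 members in irisin HFD libraries (23.3% of genes), 2 in irisin chow (30%), 3 in GFP HFD (33.9%) and 1 in GFP chow (18.8%). In irisin mice on HFD, where 10.3% of genes were called, limma called 0 members and voom 0, and 2 members had an unadjusted p under 0.05. Macrophage markers differed between the depots too: 6 of 8 were called lower in iWAT, with a median of -0.84, and 0 higher. Their sums were 107 to 722 FPKM in iWAT and 317 to 1519 FPKM in eWAT. Of the 8 adipocyte markers 4 were called higher in iWAT and 0 lower. In the averaged depot difference 25.4% of all genes were called in either direction.

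The order of the 8 group means differed by gene. For Itgb5 the 4 eWAT groups came first and the 4 iWAT groups after them, and for Itgb1 the 4 HFD groups came first and the 4 chow groups after them. For Fndc4 the 2 iWAT chow groups led, followed by the 2 eWAT chow groups and the 4 HFD groups. For Fndc5 the 2 eWAT HFD groups and iWAT irisin HFD led, and iWAT GFP HFD was last. Neighbours in these orders overlapped in every case but the pair at the top for Itgav, where eWAT GFP HFD (10.1 ± 0.327 FPKM) stood apart above eWAT irisin HFD (6.16 ± 1.60 FPKM).

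Several beta subunits can pair with alphaV, and the share of Itgb5 in the summed FPKM of Itgb1, Itgb3, Itgb5, Itgb6 and Itgb8, its known partners, was computed per library. FPKM is per length of the gene model, so that these genes can be set side by side. Itgb5 held 31.2 ± 2.75% in iWAT and 38.9 ± 3.17% in eWAT (SD, n = 12 each), a difference of -7.72 percentage points. The exact permutation test, two-sided and within vector and diet, gave p = 2.5e-05 and an adjusted p of 2.5e-04 over the 10 tests of this family. Itgb1 held 54.5% to 73.8%, Itgb3 0.562% to 3.34%, and Itgb6 and Itgb8 were minor. In eWAT the Itgb5 share was 36.7 ± 2.53% on HFD and 41.0 ± 2.14% on chow (SD, n = 6 each; exact permutation p = 0.02, adjusted p = 0.05, at and not under the threshold). With 1 library left out, that difference was not under the threshold in 23 of 24 runs (exact adjusted p up to 0.1). The 1 run under it was that without eWAT irisin HFD 3 (-5.14 points, exact adjusted p = 0.0375). In iWAT the share on HFD minus that on chow was -0.83 points (exact permutation p = 0.655), and the irisin minus GFP differences were 1.14 points in iWAT (exact permutation p = 0.48) and 0.31 points in eWAT (exact permutation p = 0.83).

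The balance of Itgb5 against its own alpha partner was taken as the log2 ratio of Itgb5 over Itgav. In eWAT it was lower on HFD, 3.62 ± 0.42, than on chow, 4.32 ± 0.35 (SD, n = 6 each), by -0.70 (exact permutation p = 0.005, the smallest that its 400 permutations can give, adjusted p = 0.025). It was higher in irisin mice, 4.25 ± 0.41, than in GFP mice, 3.69 ± 0.49 (SD, n = 6 each), by 0.56 (exact permutation p = 0.01, adjusted p = 0.0333). This vector difference holds that of Itgav in eWAT, -0.61, which was not called over all genes (limma adjusted p = 0.489). The ratio was chosen with earlier results of these data known, and its p was adjusted over 10 tests only, so that it is no separate evidence of a vector effect. In irisin HFD libraries of eWAT the ratio was 3.60, 4.13 and 4.06, and in GFP HFD libraries 3.39, 3.48 and 3.04. In irisin chow libraries it was 4.41, 4.74 and 4.53, and in GFP chow libraries 4.44, 3.92 and 3.86. On HFD the irisin libraries lay above the GFP libraries, and on chow they overlapped through irisin chow 1 and GFP chow 1. The vector difference was not under the threshold without irisin chow 2 or 3 (exact adjusted p = 0.0833), GFP HFD 1 or 2 (0.0625) or GFP HFD 3 (0.075). Without the 4 libraries rich in other tissues both the diet difference (-0.54) and the vector difference (0.58) had an exact adjusted p of 0.0667. In iWAT the HFD minus chow difference was 0.41 (exact permutation p = 0.215) and the irisin minus GFP difference 0.27 (exact permutation p = 0.405), and between the depots it was -0.08 (exact permutation p = 0.727).

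**Figure D4:**
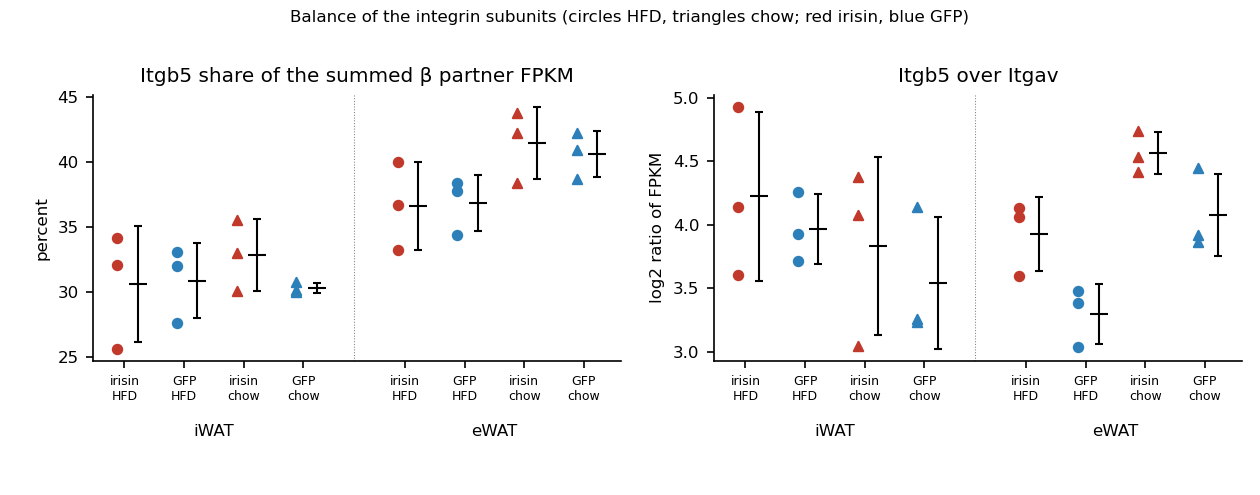
Per library, the share of Itgb5 in the FPKM of the beta subunits that pair with alphaV (percent) and the log2 ratio of Itgb5 over Itgav, by group (points, 3 per group; bars, mean ± SD). The Itgb5 share averages 31.2% in iWAT and 38.9% in eWAT.

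Other integrin subunits were set beside the members as a list of 24 genes. On HFD in iWAT 4 of the 20 tested were called higher and 3 lower, against 9.45% and 8.02% of all genes. Their median log2 fold change was 0.02 against -0.016 for all genes. Itga6, Itga1 and Itga7, alpha subunits that bind laminin or collagen with beta1, were higher by 1.45 ± 0.15, 0.91 ± 0.11 and 1.13 ± 0.18 (limma adjusted p = 3.8e-04, 7.69e-04 and 0.00298). The leukocyte subunit Itgad was higher by 3.79 ± 0.63 (limma adjusted p = 0.00318). In eWAT 8 of 19 were called higher and 3 lower, against 20.9% and 18.4% of all genes. Their median was 0.24 against -0.0027 for all genes. The largest rises there were those of the leukocyte subunits Itgax (4.90 ± 0.47), Itgad (3.80 ± 0.43) and Itgb2 (2.58 ± 0.37), with limma adjusted p of 7.25e-05, 1.41e-04 and 4.23e-04. Itgax is also among the lipid-associated macrophage markers. Itga4 and Itga5, which pair with beta1 on many cells, rose by 1.18 ± 0.17 and 1.09 ± 0.24 (limma adjusted p = 4.02e-04 and 0.00477). Itgb3, the other classical partner of alphaV, was at -0.90 ± 0.31 in iWAT (limma adjusted p = 0.0719) and -0.34 ± 0.13 in eWAT (limma adjusted p = 0.0603), neither called. The count in iWAT was 4 in place of 7 with no filter and without irisin HFD 3, irisin chow 1 or 3, GFP HFD 2 or 3, or GFP chow 1 or 2, and the count in eWAT was 7 in place of 11 without irisin chow 3.

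**Figure D5:**
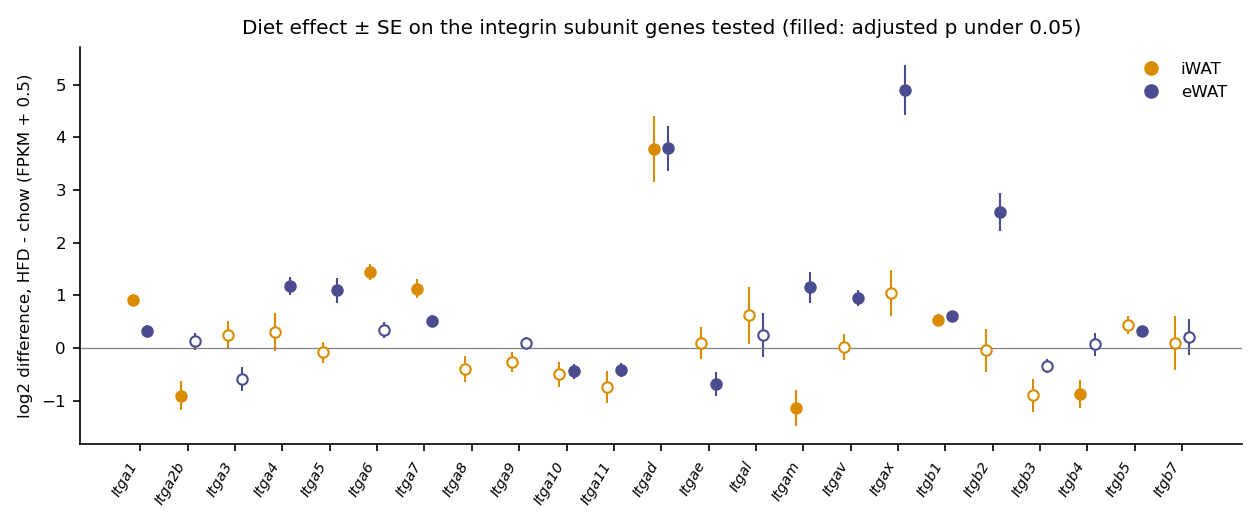
Log2 difference HFD minus chow, averaged over the vectors, with SE, for the members Itgav, Itgb5 and Itgb1 and the other integrin subunits tested, in iWAT and eWAT. Filled points have a limma adjusted p under 0.05. Itgax in eWAT (4.90) and Itgad in iWAT (3.79) and eWAT (3.80) lie highest, and Itgb1 lies above 0 in iWAT (0.53) and in eWAT (0.61).

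Secreted ligands of alphaV integrins were counted in the same way. On HFD in iWAT 4 of the 13 tested were called higher and 3 lower, against 9.45% and 8.02% of all genes. Their median was 0.33. Mfge8, a bridge between alphaV integrins and dying cells, rose by 1.63 ± 0.20 (limma adjusted p = 6.74e-04) and Thbs1, thrombospondin, by 1.94 ± 0.29 (limma adjusted p = 0.00179), while Spp1, osteopontin, changed by -1.83 ± 0.33 (limma adjusted p = 0.00507). In eWAT 7 were called higher and 4 lower, against 20.9% and 18.4% of all genes, with a median of 0.85. Spp1 there rose by 5.95 ± 0.58 (limma adjusted p = 7.64e-05), Mfge8 by 2.64 ± 0.19 (limma adjusted p = 3.15e-05) and Postn, periostin, by 2.04 ± 0.23 (limma adjusted p = 1.4e-04). Spp1 thus had opposite signs in the 2 depots. Between the depots 7 ligands were called lower in iWAT and 0 higher (median -0.57, against 0.0099 for all genes). Of all genes 25.4% were called there. The ligands were led by Thbs1 at -1.98 ± 0.20 (limma adjusted p = 8.19e-07) and Tgfb3 at -0.84 ± 0.09 (limma adjusted p = 8.5e-07).

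Genes that link integrins to the cytoskeleton and to kinases were also counted, with 17 tested. On HFD in iWAT 5 were called higher and 0 lower (median 0.23), against 9.45% and 8.02% of all genes. In eWAT 7 were called higher and 2 lower (median 0.10), against 20.9% and 18.4% of all genes. Ptk2b, the kinase PYK2, rose by 1.05 ± 0.15 in iWAT (limma adjusted p = 0.00138) and by 0.46 ± 0.09 in eWAT (limma adjusted p = 0.00263). Vcl, vinculin, rose by 0.87 ± 0.13 in iWAT (limma adjusted p = 0.00202), and Lims1, an adaptor of the integrin-linked kinase, rose by 0.63 ± 0.11 in eWAT (limma adjusted p = 0.0014). Fermt3, a leukocyte kindlin, rose by 1.69 ± 0.35 in eWAT (limma adjusted p = 0.00322). Between the depots 3 were called higher and 6 lower in iWAT, with a median near 0, where 25.4% of all genes were called. Ptk2b was lower in iWAT by -0.78 ± 0.09 (limma adjusted p = 2.74e-06).

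The genes known to regulate Fndc5 or to work with irisin and FNDC4 were set beside the members as a list of 6. In the diet effects averaged over the vectors limma called 0 of 6 in iWAT (17.5% of all genes) and 0 in eWAT (39.3%). Of the 6, voom also called 0. With single libraries left out 1 was called in iWAT without irisin chow 2 or GFP chow 3, and 1 in eWAT without irisin HFD 2, as under upper quartile and quantile scaling in eWAT. The coactivator Ppargc1a, which drives Fndc5 in muscle, was at -0.30 ± 0.22 in iWAT (limma adjusted p = 0.374) and 0.0094 ± 0.15 in eWAT (limma adjusted p = 0.966), the depot in which Fndc5 rose. Between the depots, where 25.4% of all genes were called, 3 of the 6 were called higher in iWAT. They were Ppargc1a by 0.83 ± 0.13 (limma adjusted p = 1.31e-04), Ppargc1b, its relative, by 0.57 ± 0.12 (limma adjusted p = 0.00135) and Adgrf5, the reported FNDC4 receptor, by 0.67 ± 0.17 (limma adjusted p = 0.00612). Cd81, the reported helper of the receptor, was nearly level at 88.4 to 144 FPKM over the 24 libraries, with changes on HFD of 0.055 ± 0.13 in iWAT (limma adjusted p = 0.799) and -0.19 ± 0.07 in eWAT (limma adjusted p = 0.0611). In eWAT of GFP mice alone Cd81 was called lower on HFD, by -0.32 ± 0.10 (limma adjusted p = 0.0447). Hsp90aa1 was at 50.8 to 115 FPKM. The receptor Adgrf5 was at 31.8 to 51.1 FPKM on HFD and 15.3 to 41.0 FPKM on chow in iWAT, with a difference of 0.71 ± 0.26 that was not called (limma adjusted p = 0.0825), where Fndc4, the ligand gene, was lower on HFD.

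Of 9 further FNDC family genes 5 were tested, on a background of 17.5% of all genes called on HFD in iWAT and 39.3% in eWAT. None was called on HFD in iWAT, where Fndc1 had -1.13 ± 0.41 (limma adjusted p = 0.0821). In eWAT Fndc1 was called lower, by -1.22 ± 0.14 (limma adjusted p = 1.49e-04), and Fndc8 higher, by 0.45 ± 0.15 (limma adjusted p = 0.0402). The Fndc8 call is close to the threshold and the family count was 1 in place of 2 in 9 of the 12 fits that left out 1 library. Between the depots Fndc8 was higher in iWAT by 0.39 ± 0.11 (limma adjusted p = 0.0108) and Fndc3a lower by -0.44 ± 0.13 (limma adjusted p = 0.0203).

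Genes that other studies reported as raised by irisin were counted in the vector comparisons as well. Of the 7 tested, limma and voom called 0 between irisin and GFP averaged over the diets, in iWAT and in eWAT. On HFD 3 were called higher in iWAT, against 9.45% of all genes, and 3 in eWAT, against 20.9%, and none lower. They were Bdnf, a neurotrophin (0.79 ± 0.18 in iWAT, limma adjusted p = 0.0134, and 0.64 ± 0.21 in eWAT, limma adjusted p = 0.032), Dio2, which activates thyroid hormone (1.02 ± 0.27, limma adjusted p = 0.0247, and 0.79 ± 0.15, limma adjusted p = 0.00202), and the fatty acid elongase Elovl3 (1.65 ± 0.49, limma adjusted p = 0.0402, and 1.18 ± 0.29, limma adjusted p = 0.00781). The count in iWAT was 1 in place of 3 without irisin chow 1 or 3, GFP HFD 2 or GFP chow 1, and the count in eWAT was 1 with a filter of 1 FPKM. Between the depots Prdm16, Cidea and Cox8b, genes of thermogenic fat, were higher in iWAT by 1.23 ± 0.10, 2.44 ± 0.25 and 1.88 ± 0.26 (limma adjusted p = 3.31e-08, 1.08e-06 and 3.55e-05). The other lists were also without a call between the vectors averaged over the diets, by limma and by voom.

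The patterns over the 24 libraries most like each gene were ranked by Pearson's r of log2(FPKM + 0.5) among 11507 protein-coding genes, as a description of these libraries, which share groups and depth. For Itgav the nearest were Zfp704 (r = 0.98), Fem1b (0.95), Wwp1 (0.94), Cltc (0.94) and Rp2 (0.94), and for Itgb1 Sel1l, Ostm1, Mdfic and Dusp3 (each 0.95) and Polr3g (0.94). For Fndc4 they were Klf4 (0.95), Ace (0.93), Ly6a (0.92), Pcdh18 (0.91) and Fez1 (0.90), of which Ly6a is also a stromal progenitor marker. For Itgb5 they were Tmed10 (0.92), Arhgap18 (0.92), Tpm4 (0.91), Lrpap1 (0.90) and Tubb2a (0.89). No gene followed Fndc5 closely, with Mxi1 (0.68), Slc35e4 (0.67), Fzd5 (0.66), Anapc15 (0.64) and Prmt2 (0.63) the nearest.

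With the 8 group means taken out, Zfp704 (0.96) and Cltc (0.95) stayed among the 5 nearest to Itgav and Fzd5 (0.74) became the nearest to Fndc5, while for Fndc4, Itgb5 and Itgb1 all 5 were other genes than before. The deviations of Itgav were nearest to those of Acsl4 (0.96), of Fndc4 to Chp2 (0.92) and of Itgb1 to Arl1 (0.93). Among the members, Itgb5 and Itgb1 had r = 0.70 over the 24 libraries and 0.69 over the deviations, and Itgav and Itgb1 had 0.68 and 0.66. Itgav and Itgb5 had 0.60 and 0.32. Fndc4 and Itgb1 had -0.60 over the libraries and 0.35 over the deviations, so that their opposite course lay between the groups and not within them. Fndc5 and Fndc4 had -0.12 and 0.05.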

How the data were processed

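RNA sequencing of 24 white fat libraries was deposited by the authors as FPKM per gene, in a table of 54532 genes whose gene lengths are given beside them. HISAT2 2.0.5 and featureCounts 1.5.0-p3 are named in the submitters' processing notes. The labels' protocols describe selection of poly(A) RNA and both kinds of library, with and without strand. The build, the kind of library made and the strand setting of the counting were not given in the sources used here. Another 8 columns of group means were not used. In each library 100.0% of values came out as whole reads within a tolerance of 0.01, so reads per gene were recovered (14.1 M to 19.7 M per library), and no library copied another.

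The filter asked for 0.5 FPKM or more in 3 or more of the libraries fitted, and left 16125 genes in iWAT, 16274 in eWAT and 17687 over both. All 5 members passed in each fit. log2(FPKM + 0.5) was fitted by group with limma 3.58.1 in R 4.3.3 (trended moderation, 4 groups of a depot or all 8 together), with Benjamini-Hochberg adjustment over every gene tested. A gene was called at an adjusted p under 0.05. On this scale the change of genes with low values is understated. For 3 libraries against 3 the smallest exact permutation p is 0.1. Subunit shares and ratios were compared by exact permutation within strata in Python 3.11.15. The models were tested on simulated data.

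Named were the 5 members, the 5 genes most like each, and leading genes of 6 lists by adjusted p. A few others (Itgad, Itga5, Itgb2 and Itgb3, Fermt3, Hsp90aa1) were chosen after their values were seen, and a gene that the rule names is not reported here. Members, lists, tests and the 4 libraries left out together were chosen with earlier results of these data known. Alternatives were pseudocounts of 1 and 0.1, filters of 1 FPKM or none, scaling by upper quartile or by quantiles, the replicate number as a block, fits restricted to the groups compared, voom on the recovered reads, shares from reads not divided by length, and omission of libraries. Promoters are from RefSeq (GRCm38.p6). No protein sequence was used here.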

Additional observations from a re-analysis of the deposited data

Results flagged for a closer look

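For 2 of the 5 genes the HFD effect differed between the depots by a test of the difference itself. Fndc4 had a diet effect that was lower in iWAT than in eWAT by -0.73 ± 0.23 on the log2 scale (limma adjusted p = 0.0411): -1.04 ± 0.20 in iWAT and -0.31 ± 0.13 in eWAT. Itgav had one that was lower in iWAT by -0.92 ± 0.31 (limma adjusted p = 0.0456): 0.019 ± 0.25 in iWAT and 0.94 ± 0.15 in eWAT. Of all 17687 genes tested 16.1% were called in this comparison. Each of the 2 calls was lost in 16 of the 24 fits with 1 library left out.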

How the results depend on the processing

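The averaged diet calls of Fndc4 and Itgb1 in iWAT and of Fndc5, Itgav and Itgb1 in eWAT, and the averaged depot calls of Itgb5 and Itgav, held under each alternative run. The number of members called on HFD in iWAT of irisin mice was 2 and became 1 with no filter, upper quartile scaling, quantile normalization, a replicate block, voom and without the 4 libraries rich in other tissues. In GFP mice it was 0 and became 1 under quantile normalization. Between the depots in irisin chow libraries it was 1, and became 0 with a pseudocount of 0.1, no filter, either scaling, voom and without the 4 libraries, and 2 in a fit of only the groups compared. In GFP HFD libraries it was 3 and became 1 without the 4 libraries. The Itgb5 call there was also lost with no filter, upper quartile scaling and in a fit of only the groups compared. For the depot by diet difference it was 2, and became 1 with a pseudocount of 0.1 and with voom, 0 with no filter, either scaling and without the 4 libraries, and 3 with a filter of 1 FPKM, where Fndc5 was also called (limma adjusted p = 0.0467). The causes were not tested.

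Values that changed sign lay close to 0. The Fndc5 diet effect in iWAT became 0.026 with a pseudocount of 1 and 0.16 without the 4 libraries, that of Itgav in iWAT -0.044 with voom, and the Fndc5 vector effect in eWAT on HFD -0.21 without the 4 libraries. The Itgb5 share on HFD minus chow in iWAT became 0.0308 points without them. The log2 ratio of Itgb5 over Itgav in eWAT was then -0.54 for diet and 0.58 for vector, each with an exact adjusted p of 0.0667.

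With single libraries left out, the number of members called lay between 0 and 2 for HFD in irisin mice in iWAT and in eWAT, 0 and 1 in GFP mice in iWAT, 0 and 1 between depots in irisin chow and in GFP chow, 1 and 3 in GFP HFD, and 0 and 3 for depot by diet. The Fndc5 and Itgav diet effects in iWAT ranged over -0.25 to 0.33 and -0.15 to 0.18, and the Fndc5 vector effect in eWAT on HFD over -0.29 to 0.62. The Itgb5 share ranged over -1.72 to 0.418 points for diet in iWAT, -5.14 to -3.45 for diet in eWAT and -0.526 to 1.16 for vector in eWAT. The log2 ratio ranged over 0.49 to 0.65 for vector in eWAT and -0.16 to 0.023 between depots.

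The replicate numbers of the labels showed no clear pairing in the correlation of deviations from the group means. Same-numbered libraries of a depot, which differ in vector or diet, had a mean of 0.034, over 0.1 in 11 of 36 pairs. Across the depots at the same vector and diet, same-numbered libraries had 0.019, over 0.1 in 2 of 12 pairs. Libraries of unlike number there had -0.0073, over 0.1 in 6 of 24. The numbers may not follow the mice, so these values do not decide if the depots shared mice. The replicate block gave 1 called member in place of 2 for HFD in iWAT of irisin mice, and 3 in place of 2 in the averaged depot difference, where Fndc4 was then called (limma adjusted p = 0.0297). It changed no other call of a member. Fndc5 rested on 5 to 194 reads per library and Fndc4 on 27 to 165, so that counting error adds to the spread of both.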
